A study of Mus musculus with 9 samples.

Results

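The genes described here encode the SR proteins, the heterogeneous nuclear ribonucleoproteins (hnRNPs) and the RBM proteins, together with the CLK kinases and the TRA2 proteins. They were chosen by name: protein-coding genes whose GRCm38 symbol begins with Srsf, Hnrnp or Rbm, plus Clk1, Clk2, Clk3, Clk4, Tra2a and Tra2b. The rule found 84 genes among the 55416 gene identifiers in the table: 11 SR genes, 20 hnRNP genes, 39 RBM genes, 3 RBMS genes, 5 RBMX genes, 4 CLK genes and 2 TRA2 genes. Of these, 76 passed the filter on low counts and were tested. The other 8 (Srsf12, Rbm8a2, Rbm11, Rbm31y, Rbm44, Rbm46, Rbmxl2 and Rbmy) had at most 14 counts summed over the 9 libraries.

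RNA-seq was made from snap-frozen left gastrocnemius, a calf muscle of mostly fast fibers, of mice in 3 groups, with 3 libraries in each. Sedentary mice (SED) were not trained. Trained mice (AET, aerobic exercise training) ran on a motorized treadmill for 60 min a day, 5 days a week, for 8 weeks. A further trained group (AET_MET) ran on the same schedule and received metformin, an oral glucose-lowering drug, at 2 mg/mL in the drinking water. The labels do not give strain, sex or age, nor do they state that the 3 libraries of a group come from separate mice, so that p-values measure the spread between these libraries, which may be partly technical. No metformin-treated untrained group was among these samples, so the metformin comparison holds within training only. All levels below are in CPM, a gene's counts relative to the total of its library, adjusted by edgeR's TMM factors, and a gene is said to have risen or fallen where edgeR's quasi-likelihood test gave a Benjamini-Hochberg adjusted p under 0.05 over all 13944 genes tested.

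During splicing, SR proteins mostly bind purine-rich exonic enhancers and favor the use of nearby splice sites, whereas many hnRNPs bind introns or exons and silence them, although both classes can act either way depending on position. CLK kinases phosphorylate SR proteins in the nucleus and thereby control where they reside and what they bind. RBM proteins are a diverse group named for their RNA-binding motif. In striated muscle, several of them set the isoforms of sarcomere proteins, and Rbm20, the regulator of titin splicing, is the best known. Many of these genes also carry poison exons, through which the proteins limit their own mRNA. The values here are summed over all isoforms of a gene, so they do not show which isoform was made.

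Of the 76 genes, 6 differed both between AET and SED and between AET_MET and AET: Hnrnpa2b1, Hnrnph3, Hnrnpm, Hnrnpul2, Tra2a and Rbm42. For Hnrnpa2b1 and Tra2a, which both lie on the minus strand of chromosome 6 and were higher in AET than in either other group, the 250 bases before the most upstream RefSeq start (GRCm38.p6) are shown, read on the gene's strand from 5′ to 3′. The Hnrnpa2b1 stretch is chr6:51469895-51470144 and the Tra2a stretch is chr6:49264053-49264302. Capitals mark each match, on either strand, to the searched promoter motifs that occurred in either stretch. These were the CCAAT box, the GC box GGGCGG and the cAMP response element TGACGTCA.
Hnrnpa2b1: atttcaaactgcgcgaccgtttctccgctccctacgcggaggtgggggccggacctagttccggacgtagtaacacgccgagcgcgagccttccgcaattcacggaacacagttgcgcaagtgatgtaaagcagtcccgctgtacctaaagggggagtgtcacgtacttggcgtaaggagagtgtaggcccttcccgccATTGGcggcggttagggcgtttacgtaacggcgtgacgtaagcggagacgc
Tra2a: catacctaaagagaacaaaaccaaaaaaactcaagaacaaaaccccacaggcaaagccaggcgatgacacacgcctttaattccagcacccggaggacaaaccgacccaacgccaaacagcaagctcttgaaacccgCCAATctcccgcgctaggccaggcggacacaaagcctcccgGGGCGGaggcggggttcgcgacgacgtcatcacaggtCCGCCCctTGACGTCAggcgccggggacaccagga

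The Hnrnpa2b1 stretch was 59.6% G and C with 29 CpG dinucleotides, and the Tra2a stretch 58.8% with 20, against a median of 52.4% G and C over the 32851 promoters in the RefSeq table. Hnrnpa2b1 held 1 CCAAT match, on the reverse strand as ATTGG, and none of the other motifs searched on both strands, which were the E-box CACGTG, the cAMP response element, the forkhead motif GTAAACA, the ETS motif CCGGAAGT and the GC box. Tra2a held 1 CCAAT match, 2 GC boxes, 1 of them on the reverse strand, and 1 cAMP response element, which reads the same on both strands. Over all promoters of that length, 33.8% held the CCAAT box, 32.7% the GC box, 1.55% the cAMP response element, 6.02% the E-box, 3.17% the forkhead motif and 2.88% the ETS motif. These matches describe letters and not bound sites.

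Among the genes with the highest level per length (CPM per kilobase of exon), Rbm24, a muscle-enriched splicing regulator, stood first at a mean of 50.5 CPM per kb over the 9 libraries, with a range of 45.97 to 55.75. No other SR, hnRNP, RBM, CLK or TRA2 gene reached that range in any library. Hnrnpa2b1 followed at 19.8 CPM per kb (14.4 to 28.7), then Hnrnpk at 19.5 (16.0 to 22.1), Hnrnpab at 19.1 (17.2 to 20.6) and Hnrnpf at 18.9 (16.1 to 22.0). These 4 hnRNP genes overlapped in their ranges, so their order is not separated by the libraries. At the other end, Rbm47, a cofactor of RNA editing, had 0.0700 CPM per kb. In sedentary muscle alone the order behind Rbm24 was different, with Srsf5 at 22.3, Hnrnpk at 21.6, Hnrnpf at 21.4, Hnrnpa1 at 20.6 and Hnrnpab at 17.99 CPM per kb ahead of Hnrnpa2b1 at 17.4, while in AET Hnrnpa2b1 reached 27.0 against 17.2 for Hnrnpk and 16.7 for Hnrnpf.

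**Figure D1:**
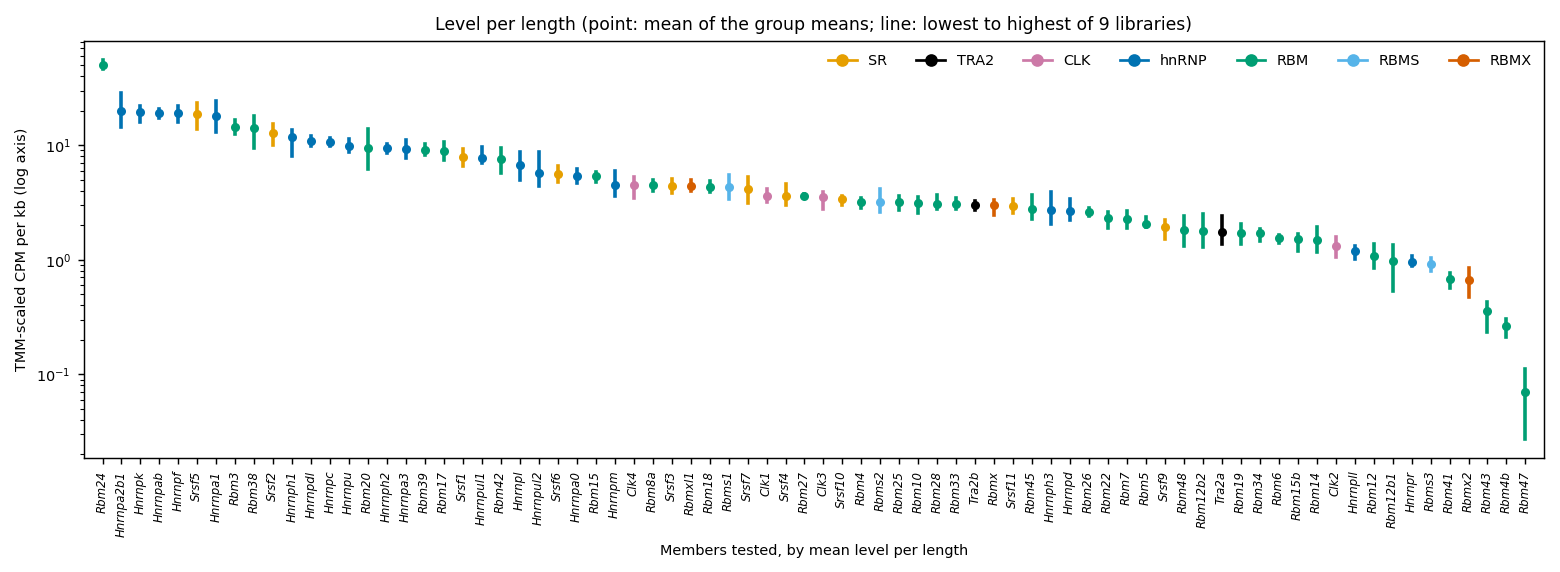
Level per length (CPM per kilobase of exon, log axis) of all 76 tested genes in order of their mean, colored by family, with a point at the mean and a line from the lowest to the highest of the 9 libraries. Rbm24 (45.97 to 55.75) lies above all others, and Rbm47 (mean 0.0700) is lowest.

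Most of these genes varied little between libraries of a group. The median coefficient of variation within groups was 7.56% over the 76 genes, from 2.78% for Rbm15 to 40.3% for Rbm47, and 11.0% over the 12918 tested genes in the same range of mean CPM. Together the 84 genes took 0.232% to 0.256% of all counts in a library.

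Treadmill training was compared with sedentary muscle first. In AET, 9 of the 76 genes rose and 7 fell, that is 21.1% of them, where 12.3% of all 13944 genes tested changed (5.82% higher and 6.45% lower). The genes that rose were Hnrnpa2b1, Hnrnph3, Hnrnpm, Hnrnpul2, Hnrnph1, Tra2a, Rbm12, Rbm12b2 and Rbms1, and those that fell were Rbm20, Rbm48, Rbm42, Srsf5, Clk4, Hnrnpf and Hnrnpk. The changes were small: the log2 change of the 76 genes ran from -0.75 to 0.70, with a median of 0.05 and a median absolute size of 0.184, against 0.01 and 0.208 over all genes. With genes under 5 CPM left out, 23.2% of 69 of these genes and 17.8% of 8682 genes changed.

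**Figure D2:**
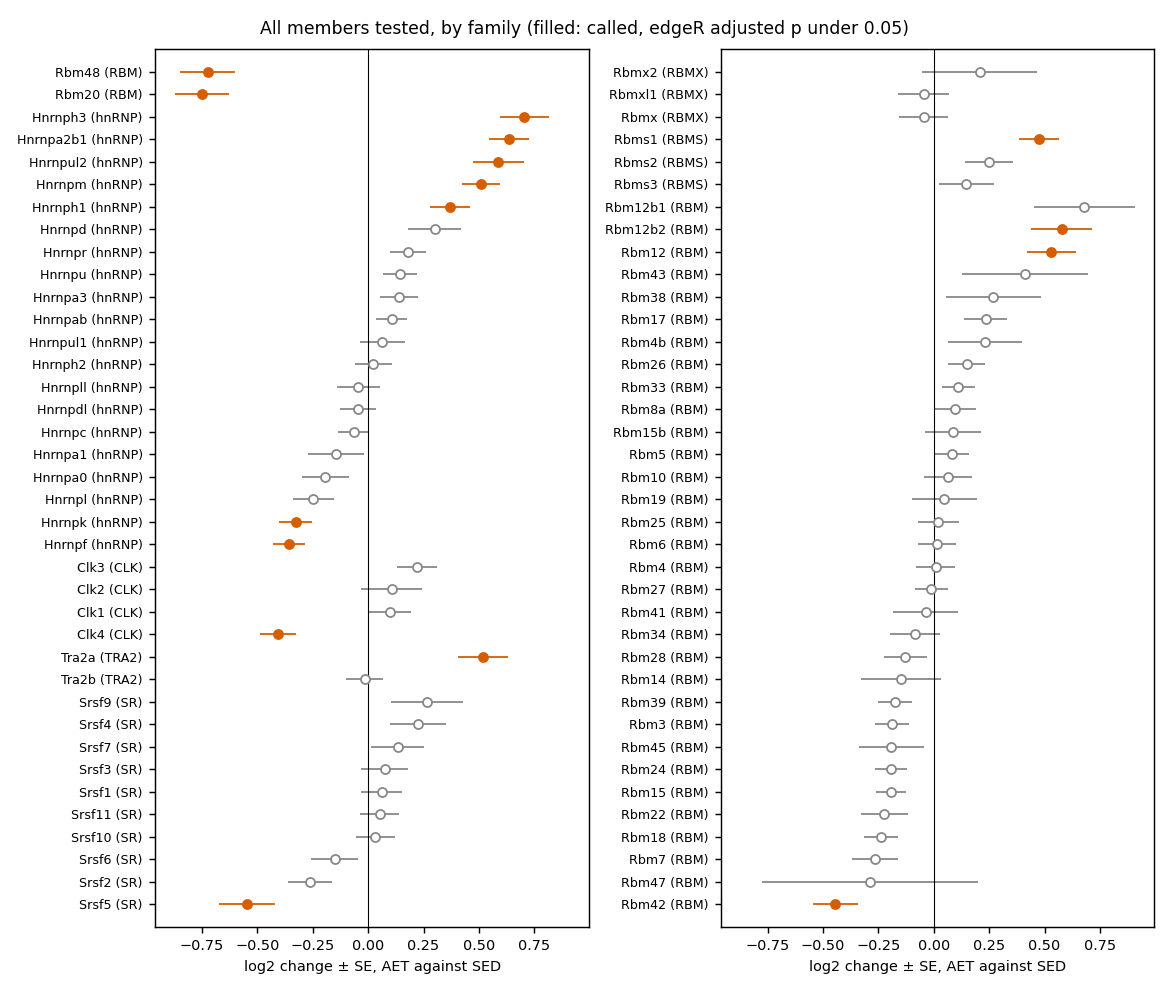
Log2 change of each of the 76 tested genes in AET against SED (edgeR, horizontal axis, with standard error bars), listed by family, with filled points for genes with an adjusted p under 0.05. The 9 genes that rose and 7 that fell include members of both signs in the hnRNP and RBM families.

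In the hnRNP family, 5 of 20 genes rose and 2 fell in AET (35.0%, beside 12.3% of all genes tested), with a median log2 change of 0.08. Hnrnpa2b1, which binds purine-rich RNA and takes part in splicing and mRNA transport, had 108, 109.7 and 125 CPM in SED and 189, 157 and 187 CPM in AET. All 3 trained libraries lay above all 3 sedentary ones, and the log2 change was 0.64 ± 0.09 (SE; edgeR adjusted p = 0.00107). The gene is ENSMUSG00000004980, at chr6:51460932-51469894 on the minus strand of GRCm38.

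Hnrnph3, a smaller member of the hnRNP H and F family, which binds runs of G, had 7.61, 6.43 and 7.13 CPM in SED and 12.4, 10.7 and 11.4 CPM in AET. The groups did not overlap, and its log2 change of 0.70 ± 0.11 (edgeR adjusted p = 0.00183) was the highest among the 76 genes. Hnrnpm, a splicing factor that binds GU-rich sequence, rose from 31.3, 28.9 and 34.9 CPM to 45.0, 43.3 and 46.9 CPM, a log2 change of 0.51 ± 0.08 (edgeR adjusted p = 0.00278). Exons of March2 cover 14.7% of the Hnrnpm exon length on the same strand. That gene had 36.6 to 46.7 CPM in a library and a log2 change of -0.11 (edgeR adjusted p = 0.422). Hnrnpul2, a relative of hnRNP U, had 33.9, 31.5 and 36.9 CPM in SED and 62.0, 42.9 and 48.9 CPM in AET. Its first AET library was well above the others, but all 3 were above SED, and the log2 change was 0.59 ± 0.12 (edgeR adjusted p = 0.00725).

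Hnrnph1, the main hnRNP H gene, had 58.5, 47.4 and 62.2 CPM in SED and 71.97, 72.4 and 73.0 CPM in AET. The AET libraries were nearly equal and the spread lay in SED, with a log2 change of 0.37 ± 0.09 (edgeR adjusted p = 0.0188). This call was lost without the second SED library (adjusted p = 0.0597) or the third AET library (0.0622).

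Against these rises stood 2 abundant hnRNP genes that fell. Hnrnpf, of the same H and F family, went from 64.2, 67.1 and 64.7 CPM to 48.9, 52.4 and 51.6 CPM, without overlap, a log2 change of -0.36 ± 0.07 (edgeR adjusted p = 0.00703). Thus Hnrnph3 and Hnrnph1 were higher and Hnrnpf was lower in the same AET libraries. Hnrnpk, which binds C-rich RNA and DNA through KH domains, fell from 138, 138 and 143 CPM to 104, 114 and 115 CPM, a log2 change of -0.33 ± 0.08 (edgeR adjusted p = 0.0152). Without the first AET library the adjusted p of Hnrnpk was 0.0511.

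The 13 hnRNP genes that did not pass the test had log2 changes from -0.25 to 0.30. They included Hnrnpa1, an abundant partner of Hnrnpa2b1 in splicing silencing, at -0.15 ± 0.13 (edgeR adjusted p = 0.486), Hnrnpc at -0.07, Hnrnpab at 0.11, Hnrnpu at 0.15 and Hnrnpl at -0.25. Summed over the 20 genes, hnRNP levels were 1038, 1030 and 1078 CPM in SED and 1168, 1072 and 1158 CPM in AET, so the lowest AET library lay within the range of SED.

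Among the SR genes, Srsf5 fell and none of the other 9 tested passed (10.0% called, beside 12.3% of all genes tested). Srsf5, an SR protein known as an insulin-responsive gene in liver cells, had 93.9, 81.4 and 91.7 CPM in SED and 54.9, 60.0 and 67.9 CPM in AET. The groups did not overlap, with a log2 change of -0.55 ± 0.13 (edgeR adjusted p = 0.0186). The call was not held by every subset: the adjusted p was 0.0598 without the first SED library, 0.0645 without the third, 0.0791 without the first AET library and 0.0651 without the second. The other 9 SR genes had log2 changes from -0.26 to 0.27, with Srsf1 at 0.06, Srsf2 at -0.26 ± 0.10 (edgeR adjusted p = 0.101), Srsf3 at 0.07, Srsf6 at -0.15 and Srsf10 at 0.03. Summed SR levels were 302, 316 and 303 CPM in SED and 257, 293 and 285 CPM in AET. Within these sums Srsf5 went from a mean of 89.0 to 61.0 CPM. Of the 10 SR estimates, 7 were positive and 3 negative, with a median log2 change of 0.056, so the lower sums do not show a fall across the family.

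The SR-like protein gene Tra2a, whose product binds GAA-rich exonic enhancers, rose from 9.50, 12.1 and 9.87 CPM to 13.9, 16.6 and 14.5 CPM. The groups did not overlap, with a log2 change of 0.52 ± 0.11 (edgeR adjusted p = 0.0112). Its paralog Tra2b had means of 28.1 CPM in SED and 27.8 CPM in AET, a log2 change of -0.02 ± 0.08 (edgeR adjusted p = 0.923). The difference between the responses of these paralogs was not tested.

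Of the kinases that phosphorylate SR proteins, Clk4 fell. It had 28.9, 29.6 and 30.9 CPM in SED and 20.1, 23.3 and 24.0 CPM in AET, all below SED, a log2 change of -0.41 ± 0.08 (edgeR adjusted p = 0.00783). Clk1, Clk2 and Clk3 had log2 changes of 0.10, 0.11 and 0.22, and none passed.

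In the RBM family, 2 of 34 tested genes rose and 3 fell, with a median log2 change of 0.00. That is 14.7% of them, near the 12.3% of all genes tested. Rbm20, whose loss changes titin isoforms and causes cardiomyopathy, had 93.1, 94.7 and 77.3 CPM in SED and 56.5, 42.0 and 59.3 CPM in AET. Every AET library was below every SED library, and the log2 change of -0.75 ± 0.12 (edgeR adjusted p = 0.00319) was the lowest among the 76 genes. The gene spans chr19:53677306-53867080 on the plus strand. Rbm48, a component of the minor spliceosome, fell from 7.37, 6.52 and 6.99 CPM to 4.49, 4.02 and 4.14 CPM, a log2 change of -0.72 ± 0.12 (edgeR adjusted p = 0.00319).

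Rbm42, a binding partner of hnRNP K, had 17.6, 19.6 and 17.3 CPM in SED and 12.7, 14.8 and 12.5 CPM in AET. The ranges were apart and the log2 change was -0.44 ± 0.10 (edgeR adjusted p = 0.0148), but the adjusted p was 0.0632 without the second SED library, 0.054 without the first AET library and 0.0635 without the third. Exons of the predicted gene Gm21982 cover 75.4% of the Rbm42 exon length on the same strand, and that gene had 0 to 17 counts in a library.

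Rbm12 rose from 5.72, 6.56 and 5.86 CPM to 9.16, 8.63 and 8.44 CPM, a log2 change of 0.53 ± 0.11 (edgeR adjusted p = 0.00891). On its strand the predicted gene Gm28036 shares 32.6% of its exon length and had a log2 change of -0.05 (edgeR adjusted p = 0.887). Rbm12b2 had 5.06, 5.50 and 4.49 CPM in SED and 7.11, 8.78 and 6.57 CPM in AET, a log2 change of 0.58 ± 0.14 (edgeR adjusted p = 0.0181). Its call was lost without the first SED library (adjusted p = 0.0515), the third SED library (0.0651) or the second AET library (0.0716). Its near copy Rbm12b1 had a log2 change of 0.68 ± 0.23 (edgeR adjusted p = 0.0682), and reads that the copies share could be split between them either way.

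The muscle-enriched Rbm24 had 193, 176 and 195 CPM in SED and 171, 162 and 161 CPM in AET. The ranges did not overlap, but its log2 change of -0.19 ± 0.07 did not pass (edgeR adjusted p = 0.104). Rbm38, a target of p53 that also acts in myogenic splicing, had 27.3, 33.2 and 52.0 CPM in SED and 43.6, 41.1 and 50.7 CPM in AET, a log2 change of 0.27 ± 0.21 (edgeR adjusted p = 0.454). That value rested on the third SED library, without which it was 0.58 (adjusted p = 0.0127).

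Other RBM genes of known function stayed under the threshold. Rbm3, a cold-inducible RNA-binding protein, had a log2 change of -0.19 (edgeR adjusted p = 0.121), and Rbm15, a subunit of the m6A writer, -0.19 (0.0775). Rbm39, a partner of the U2 snRNP machinery, was at -0.17 (0.146), and Rbm5, Rbm8a and Rbm10 had means of 31.6, 14.3 and 11.8 CPM in SED against 33.4, 15.2 and 12.3 CPM in AET. The 29 RBM genes that did not pass had log2 changes from -0.29 (Rbm47) to 0.68 (Rbm12b1). Over the 34 tested RBM genes, summed levels were 889, 894 and 923 CPM in SED and 841, 813 and 839 CPM in AET. The AET sums were all below SED, but 17 of the 34 estimates were positive and 17 negative. Within the sums, Rbm20 went from a mean of 88.4 to 52.6 CPM and Rbm24 from 188 to 164 CPM.

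Rbms1, which binds single-stranded DNA and the untranslated regions of mRNA, had 21.4, 18.6 and 20.4 CPM in SED and 30.2, 27.1 and 26.7 CPM in AET, a log2 change of 0.47 ± 0.09 (edgeR adjusted p = 0.0055). Rbms2 and Rbms3 had log2 changes of 0.25 and 0.15 and did not pass. None of the 3 tested RBMX genes passed in edgeR, DESeq2 or limma-voom, and 0 had an unadjusted p under 0.05.

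Without overlap between groups were 33 of the 76 genes in this comparison, and 4560 of all 13944 genes tested (32.7%). The genes that rose had a median exon length of 6584 bases (3151 to 7956) and those that fell 3988 bases (2188 to 6790), with 5434 bases over the 76. In whole muscle, fewer cells of a type and less RNA per cell cannot be told apart. Markers of other cells moved between the same groups: the summed level of 7 Schwann cell markers was 57.7 to 66.0 CPM in SED, 104 to 166 CPM in AET and 43.8 to 93.3 CPM in AET_MET, and 2 of 7 (S100b and Sox10) rose in AET. Summed fibroblast markers were 1020.4 to 1387 CPM in SED, 836 to 914 CPM in AET and 707 to 774 CPM in AET_MET, with 2 of 7 lower in AET. Summed smooth muscle and pericyte markers were 519 to 611 CPM in SED, 614 to 713 CPM in AET and 511 to 611 CPM in AET_MET, with 2 of 7 (Acta2 and Cspg4) higher in AET. Summed endothelial markers were 225 to 250.07 CPM, 245 to 305 CPM and 192 to 233 CPM, with Kdr higher and Cldn5 lower in AET and Kdr lower in AET_MET than in AET. The part of these cells in the changes of splicing genes was not tested. Summed slow-fiber markers ranged widely, from 839 to 1014.9 CPM in SED, 341 to 1284 CPM in AET and 90.5 to 726 CPM in AET_MET, and in each comparison 0 of the 9 passed in edgeR, DESeq2 or limma-voom and 0 had an unadjusted p under 0.05. In AET_MET against SED, however, all 9 had negative estimates, with a median log2 change of -1.24. The groups did not overlap there in 7 of the 9, beside 26.8% of all genes. Summed tenocyte (tendon cell) markers were 311 to 508 CPM in SED, 134 to 305 CPM in AET and 90.1 to 212 CPM in AET_MET. Of these, 0 of 6 passed in edgeR in any comparison, and 1 passed in DESeq2 in AET_MET against SED. Summed satellite cell markers were 14.1 to 15.7 CPM in SED, 10.5 to 12.1 CPM in AET and 13.8 to 17.4 CPM in AET_MET. Of 4 tested, 1 was lower in AET than in SED. In AET_MET, 1 was higher than in SED and 1 higher than in AET. No macrophage, lymphocyte, adipocyte or erythroid marker passed in edgeR in any comparison, and 1 erythroid marker passed in DESeq2 in AET_MET against SED. The part of these sets was not tested. Summed fast-fiber markers were 139350 to 162530 CPM over the libraries. Of these 9, 1 was lower in AET than in SED, and 7 had negative estimates there, with a median log2 change of -0.125.

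**Figure D3:**
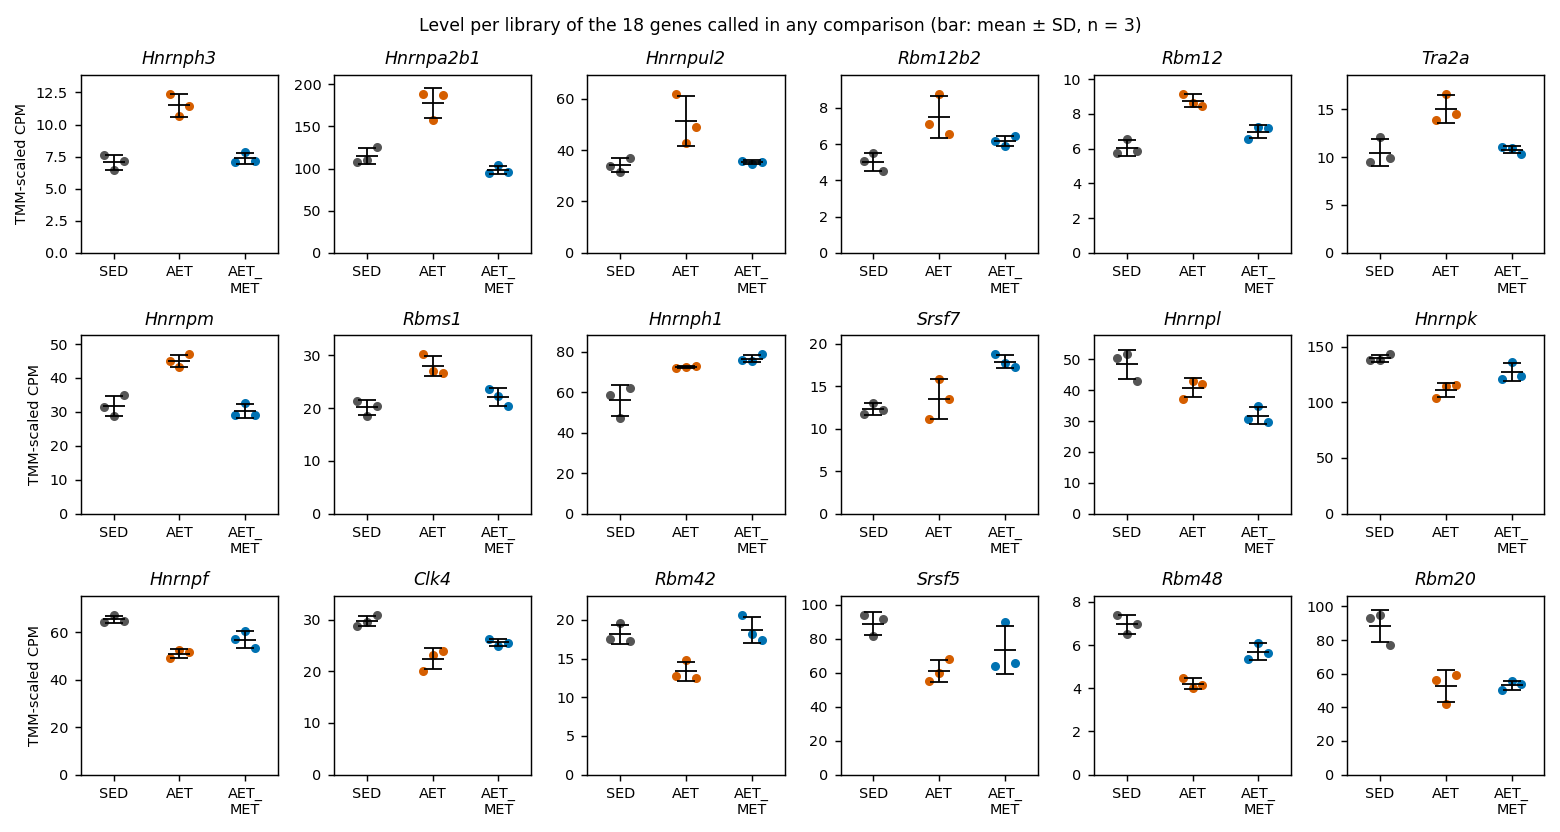
TMM-scaled CPM in each of the 9 libraries for the genes called in at least 1 comparison, with a panel for each gene, a point for each library and bars for the group mean ± SD (n = 3). Hnrnpa2b1, Hnrnph3, Hnrnpm, Hnrnpul2 and Tra2a are highest in AET, and Rbm20 is highest in SED.

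Trained, metformin-treated muscle was then compared with the same sedentary libraries. In AET_MET against SED, 2 of the 76 genes rose (Hnrnph1 and Srsf7) and 2 fell (Hnrnpl and Rbm20), that is 5.26% of them, where 4.59% of all genes changed (2.17% higher and 2.42% lower, or 303 and 337 genes, and 684 and 176 genes with scaling by library size alone). The share was thus near that of all genes. The median log2 change was -0.03 and the median absolute size 0.098, against 0.00 and 0.174 over all genes. The groups did not overlap in 18 of the 76 genes, and in 3739 of all 13944 genes (26.8%).

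Hnrnpl, which binds CA repeats and can repress or activate exons, had 50.6, 51.6 and 43.1 CPM in SED and 30.7, 35.0 and 29.7 CPM in AET_MET. Every treated library was below every sedentary one, with a log2 change of -0.61 ± 0.10 (edgeR adjusted p = 0.00555), and the call held without any single library. In AET, Hnrnpl stood between the other groups at 37.3, 43.1 and 42.0 CPM. The gene lies at chr7:28808541-28822266.

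Rbm20 had 50.3, 55.6 and 53.5 CPM in AET_MET, below all 3 SED libraries, a log2 change of -0.73 ± 0.12 (edgeR adjusted p = 0.00843). Without the third AET_MET library the adjusted p was 0.0595. Between the trained groups the log2 difference of Rbm20 was 0.02 ± 0.12 (edgeR adjusted p = 0.959), with a mean of 52.6 ± 9.29 CPM (SD, n = 3) in AET and 53.1 ± 2.68 CPM (SD, n = 3) in AET_MET. Rbm20 and Hnrnph1 were the genes called against SED in both trained groups, which share the SED libraries.

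Hnrnph1 had 76.0, 75.3 and 78.6 CPM in AET_MET, above all SED libraries, a log2 change of 0.45 ± 0.09 (edgeR adjusted p = 0.0153). The adjusted p was 0.0583 without the first AET_MET library and 0.0822 without the third. Srsf7, an SR protein with a zinc knuckle that also takes part in mRNA export, had 11.7, 13.1 and 12.3 CPM in SED and 18.8, 17.7 and 17.3 CPM in AET_MET. The groups were well apart, with a log2 change of 0.54 ± 0.12 (edgeR adjusted p = 0.024). In AET, Srsf7 had 11.2, 15.9 and 13.6 CPM, a log2 change against SED of 0.13 ± 0.12 (edgeR adjusted p = 0.493). The Srsf7 call was lost whenever a library of either group was left out, with adjusted p from 0.0532 without the second AET_MET library to 0.0941 without the first.

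Srsf1, an SR protein that acts in splicing and translation, had 42.3, 44.4 and 38.7 CPM in SED and 52.6, 52.1 and 48.4 CPM in AET_MET. These did not overlap, but the log2 change of 0.29 ± 0.09 did not pass (edgeR adjusted p = 0.0967). Srsf5 had 64.3, 89.7 and 66.0 CPM in AET_MET, a log2 change of -0.28 ± 0.13 (edgeR adjusted p = 0.242). The second AET_MET library decided that value, which was -0.46 (adjusted p = 0.0272) without it.

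Hnrnpa1 had 57.8, 60.3 and 77.1 CPM in SED and 44.2, 55.4 and 41.3 CPM in AET_MET, without overlap. Its log2 change of -0.47 ± 0.13 was just outside the threshold (edgeR adjusted p = 0.0628) and passed with DESeq2 (0.0133), with no filter on low counts (0.0446) and without the second AET_MET library (-0.62, adjusted p = 0.0156). The other hnRNP genes that rose in AET had log2 changes against SED of 0.06 (Hnrnph3), -0.06 (Hnrnpm), 0.05 (Hnrnpul2) and -0.22 (Hnrnpa2b1) in AET_MET, and none of these passed. Rbm48, Clk4, Hnrnpf and Hnrnpk had -0.29, -0.22, -0.20 and -0.14, with edgeR adjusted p of 0.203, 0.155, 0.131 and 0.337. Of the CLK, TRA2, RBMS and RBMX genes, 0 of 12 passed in edgeR, DESeq2 or limma-voom, and 1 CLK gene had an unadjusted p under 0.05.

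**Figure D4:**
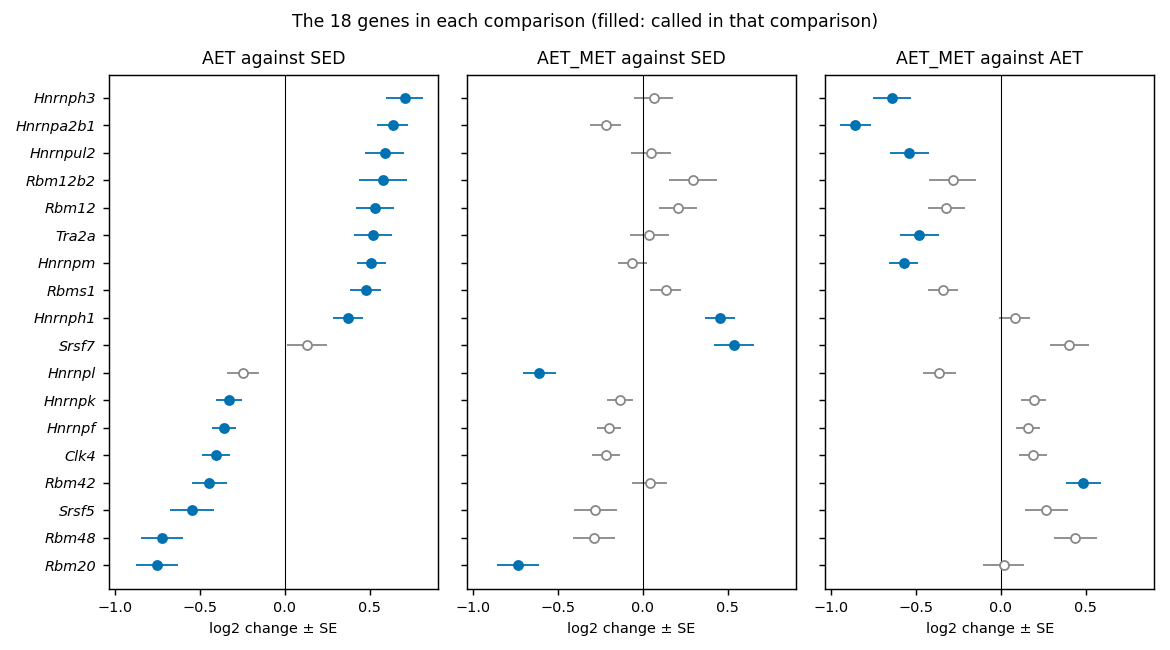
Log2 change with standard error of the 18 genes called in any comparison, with a panel for each of the 3 comparisons and filled points where the edgeR adjusted p was under 0.05. All 6 filled genes at the right are also filled at the left. The comparisons share libraries pairwise, so a high AET group raises the value against SED and lowers the AET_MET value against AET.

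The trained groups were compared with each other to ask what metformin changed within training, which is also the test of whether the change from SED differed between them. In AET_MET against AET, 1 of the 76 genes was higher (Rbm42) and 5 were lower (Hnrnpa2b1, Hnrnph3, Hnrnpm, Hnrnpul2 and Tra2a), that is 7.89% of them, where 3.43% of all genes changed (1.66% higher and 1.77% lower, or 231 and 247 genes, and 611 and 156 genes with scaling by library size alone). All 6 had also changed in AET against SED, and since the same AET libraries stand in both comparisons the values are given side by side and not as separate support. The median log2 difference of the 76 genes was -0.06 and its median absolute size 0.191, against 0.00 and 0.183 over all genes. The groups did not overlap in 37 of the 76 genes, and in 3887 of all 13944 genes (27.9%).

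Hnrnpa2b1 had 94.97, 104 and 95.8 CPM in AET_MET, below all AET libraries. The log2 difference from AET was -0.85 ± 0.09 (edgeR adjusted p = 0.00179), beside -0.22 ± 0.09 against SED (0.192). This call held without any single library, with adjusted p up to 0.0238. The group means were 114 ± 9.44 CPM in SED, 178 ± 17.6 CPM in AET and 98.3 ± 5.00 CPM in AET_MET (SD, n = 3 each).

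Hnrnph3 had 7.09, 7.87 and 7.14 CPM in AET_MET, a log2 difference from AET of -0.64 ± 0.11 (edgeR adjusted p = 0.0154). All 3 were below AET and within or near the range of SED, but the adjusted p was 0.0671 without the third AET library, 0.0609 without the first AET_MET library and 0.0794 without the third. Hnrnpm had 29.2, 32.7 and 29.1 CPM, a log2 difference of -0.57 ± 0.09 (edgeR adjusted p = 0.0105). Its adjusted p was 0.0535 without the third AET library and 0.0679 without the third AET_MET library.

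Hnrnpul2 had 35.9, 34.5 and 35.5 CPM in AET_MET, a log2 difference from AET of -0.54 ± 0.12 (edgeR adjusted p = 0.0294). The treated libraries were close together and all below AET. The call was lost without the first AET library (0.0604), the third AET library (0.0975) or any AET_MET library (0.085, 0.0882 and 0.12 without the first, the second and the third). AC129217.1 covers 5.1% of the Hnrnpul2 exon length on the same strand and had 1 to 52 counts in a library. Its log2 change was 1.57 in AET against SED (edgeR adjusted p = 0.199) and -1.19 in AET_MET against AET (0.377). Its part in the Hnrnpul2 values was not tested.

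Tra2a had 11.0, 11.0 and 10.3 CPM in AET_MET, all below AET, a log2 difference of -0.48 ± 0.11 (edgeR adjusted p = 0.0386). It did not pass when any library of either group was left out, with adjusted p from 0.0635 without the first AET library to 0.155 without the third AET_MET library, nor with scaling by library size alone (0.107). Tra2b was at -0.03.

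Rbm42 had 20.6, 18.2 and 17.4 CPM in AET_MET, above all AET libraries and around the SED levels, a log2 difference of 0.48 ± 0.10 (edgeR adjusted p = 0.0273). Without the first AET library the adjusted p was 0.0769, without the third 0.114, and without the first, the second or the third AET_MET library 0.0908, 0.0691 and 0.0899.

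The other genes that changed with training did not pass in this comparison with edgeR and all libraries. Rbm48 had 5.37, 6.11 and 5.61 CPM in AET_MET, above AET and below SED, a log2 difference from AET of 0.44 ± 0.13 (edgeR adjusted p = 0.0684), and it passed with scaling by library size alone (0.0367). Clk4 stood at 26.3, 25.0 and 25.6 CPM, above AET and below SED too, with 0.19 ± 0.08 (edgeR adjusted p = 0.21). Hnrnpf, Hnrnpk and Srsf5 had log2 differences of 0.16, 0.19 and 0.27, and Rbm12 -0.32 ± 0.11 (edgeR adjusted p = 0.114). Rbms1 was at -0.34 ± 0.09 (edgeR adjusted p = 0.0575) and passed with DESeq2 (0.0379), with no filter (0.0457) and with the filter at 5 CPM (0.0394). A missed threshold does not show that the trained groups are alike in these genes.

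Hnrnpl was just outside the threshold at -0.36 ± 0.10 (edgeR adjusted p = 0.0562) and passed with DESeq2, with no filter, with the filter at 5 CPM and without the third SED library. Hnrnpu, a nuclear matrix hnRNP, had means of 125 CPM in AET and 104 CPM in AET_MET, a log2 difference of -0.27 ± 0.08 (edgeR adjusted p = 0.0705), and it passed with DESeq2 (0.03) and with the filter at 5 CPM (0.0428). Summed hnRNP levels in AET_MET were 971, 1030 and 967 CPM, all below the 3 AET sums, and the family's median log2 difference was -0.13. Schwann cell markers were also lower in sum in AET_MET than in AET (43.8 to 93.3 against 104 to 166 CPM): none of the 7 passed in edgeR or limma-voom, 2 passed in DESeq2 and 6 had an unadjusted p under 0.05. Their part in the hnRNP differences was not tested.

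The median log2 difference of the SR genes was 0.14. None of the 10 passed in edgeR, DESeq2 or limma-voom, and 4 had an unadjusted p under 0.05. Srsf7 was at 0.40 ± 0.12 (edgeR adjusted p = 0.0709) and passed at 0.53 without the second AET library. Srsf1 was at 0.23 ± 0.09 (edgeR adjusted p = 0.173), while Srsf4 was at -0.42 (0.082). Summed SR levels in AET_MET were 302, 335 and 288 CPM, overlapping with AET. Rbm3 had 66.9, 73.5 and 78.4 CPM in AET_MET against 63.9, 61.6 and 59.3 CPM in AET, a log2 difference of 0.24 ± 0.08 (edgeR adjusted p = 0.086), and it passed with scaling by library size alone, at 0.33.

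Genes that act with these proteins were read from 4 lists. Against SED, 12.3% of all genes tested changed in AET and 4.59% in AET_MET. Among 7 genes of the SR protein kinase and phosphatase side, 1 (14.3%) rose against SED in each trained group. This was Srpk2, a kinase that loads SR proteins with phosphate, which had 27.4, 26.2 and 28.6 CPM in SED, 36.8, 33.7 and 33.2 CPM in AET and 35.4, 33.9 and 37.3 CPM in AET_MET. The log2 change was 0.33 ± 0.08 in AET (edgeR adjusted p = 0.0142) and 0.37 ± 0.08 in AET_MET (0.0168). Both calls depended on single libraries: in AET the adjusted p was 0.0606 without the second SED library and 0.0533 without the first AET library, and in AET_MET it ran from 0.0514 to 0.0992 without the first or second SED library or the first or the third AET_MET library. Thus Srpk2 was higher and Clk4 lower in AET.

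Of 21 tested splicing regulators of muscle outside the named families, 4 rose and 1 fell in AET (23.8%, beside 12.3% of all genes), and 3 rose in AET_MET against SED (14.3%, beside 4.59%). Rbfox2, which binds GCAUG next to muscle exons, rose in both, with log2 changes of 0.61 ± 0.08 (edgeR adjusted p = 0.000736) and 0.55 ± 0.08 (0.00449). Celf1 and Mbnl1 act against each other on many muscle exons. Celf1 had 65.1, 62.9 and 60.6 CPM in SED, 68.7, 69.1 and 69.2 CPM in AET and 85.4, 84.8 and 85.9 CPM in AET_MET. It was higher in AET_MET than in SED by 0.44 ± 0.06 on the log2 scale (edgeR adjusted p = 0.0038) and than in AET by 0.31 ± 0.06 (0.0256), the latter with adjusted p from 0.061 to 0.109 when any AET_MET library or the first or the third AET library was left out. Mbnl1 was higher in AET_MET than in AET by 0.37 ± 0.09 on the log2 scale (edgeR adjusted p = 0.0414), which held in 2 of 9 fits with a library left out, with adjusted p up to 0.171.

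Taf15, an RNA-binding protein that also takes part in transcription, had 4.44, 4.36 and 5.37 CPM in SED, 11.0, 6.44 and 9.86 CPM in AET and 3.39, 3.29 and 3.37 CPM in AET_MET. It was higher in AET than in SED by 0.94 ± 0.18 on the log2 scale (edgeR adjusted p = 0.00574) and lower in AET_MET than in AET by 1.44 on the log2 scale (0.00483), and both calls held without any single library. Like Hnrnpa2b1, it was highest in AET in every library. Cirbp, a cold-inducible RNA-binding protein related to Rbm3, fell in AET by 0.65 on the log2 scale (edgeR adjusted p = 0.00799). Tia1, which activates weak splice sites, was higher than in SED in both trained groups. Its log2 change was 0.37 in AET (edgeR adjusted p = 0.0253) and 0.48 in AET_MET (0.0151). The AET_MET call was lost without the second or the third SED library or the first or the third AET_MET library (0.052 to 0.0894). Between the trained groups the log2 difference of Tia1 was 0.12 (edgeR adjusted p = 0.512).

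Of 17 SR-related and nuclear speckle genes, 3 rose in AET, that is 17.6% beside 12.3% of all genes. Luc7l3, a U1 snRNP-associated protein, rose by 0.40 ± 0.08 on the log2 scale (edgeR adjusted p = 0.00535), the RNA helicase gene Ddx17 by 0.45 ± 0.10 (0.0138, and 0.0536 without the second AET library) and Nktr, a cyclophilin with SR repeats, by 0.33 ± 0.10 (0.0401). The Nktr call held in 3 of 9 fits with a library left out, with adjusted p up to 0.152. Ddx17 was also higher in AET_MET than in SED, at a log2 change of 0.43 (edgeR adjusted p = 0.034), which held in 3 of 9 such fits, with adjusted p up to 0.159. Luc7l3 and Pnn were lower in AET_MET than in AET, with log2 differences of -0.32 and -0.45 (edgeR adjusted p = 0.042 and 0.0374). These held in 0 and 3 of 9 such fits, with adjusted p up to 0.149 and 0.126.

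Among 35 core spliceosome genes, 1 rose and 4 fell in AET, that is 14.3% of them beside 12.3% of all genes tested. Snrnp70, the U1 snRNP protein that SR proteins contact, rose by 0.45 ± 0.09 on the log2 scale (edgeR adjusted p = 0.00743). Sf3b1, the U2 snRNP subunit at the branch point, had 141, 160 and 143 CPM in SED and 107, 114 and 112 CPM in AET, without overlap, a log2 change of -0.41 ± 0.08 (edgeR adjusted p = 0.00469). Cwc22, which loads the exon junction complex, had a log2 change of -0.58 ± 0.12 (edgeR adjusted p = 0.00813).

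Against SED, none of the 35 passed in AET_MET in edgeR or limma-voom, 1 passed in DESeq2 and 8 had an unadjusted p under 0.05. However, 28 of the 35 had negative estimates there, with a median log2 change of -0.15 against 0.00 over all genes. Their summed levels were 1123 to 1177 CPM in SED, 1049 to 1068 CPM in AET and 1017 to 1068 CPM in AET_MET. AET_MET and SED did not overlap in 13 of the 35, beside 26.8% of all genes. Against AET, 3 were lower in AET_MET, that is 8.57% of them beside 3.43% of all genes tested. The log2 differences were -0.66 for Prpf3, a U4/U6 snRNP protein, -0.65 for Snrpd3, an Sm core protein, and -0.36 for Snrnp70 (edgeR adjusted p = 0.0187, 0.0237 and 0.0489). Prpf3 and Snrpd3 lost the call without the first or the third library of either group, with adjusted p up to 0.0915 and 0.109. Snrnp70 held it in 1 of 9 fits with a library left out, with adjusted p up to 0.183, and lost it with limma-voom (0.0512) and with library sizes alone (0.13).

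The depth of the libraries was 15434424 (AET_MET 1) to 25355877 counts (AET 3). Mitochondrial genes took 11.16% to 15.56% of counts, with the highest share in the first AET library, and correlations of log levels within groups were 0.975 to 0.986. Of the 76 genes, 24 share exon sequence with a gene on the opposite strand, and the labels do not say whether the counting used strand.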

How the data were processed

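Expression was measured by RNA-seq in 9 mouse gastrocnemius libraries, made with the SMARTER mRNA-Seq kit, per the labels' protocols. The authors deposited expected counts per gene, one column for each library. The submitters' processing notes name STAR 2.5.3a, RSEM 1.3.0, edgeR 3.34.0 and GRCm38; neither these nor the labels give the annotation, filters or use of strand. The deposited expected counts were not whole in 4.85% to 5.53% of values per library and were rounded. Symbols, biotypes and exon lengths came from GENCODE M21: 52135 of 55416 identifiers matched, and the 3281 others held 2.69% to 5.68% of counts. Left out were 8 genes that match the name rule and are not protein coding.

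All 9 libraries were fitted together in edgeR 4.0.16 (R 4.3.3) with filterByExpr, TMM scaling, group as the only term and the robust quasi-likelihood test (6 residual degrees of freedom, biological coefficient of variation 0.134). P-values were adjusted by Benjamini-Hochberg over 13944 genes. The standard error is the log2 change divided by the square root of F. Alternatives were DESeq2 1.42.0 (size factors, and its own test), limma-voom (limma 3.58.1), upper-quartile scaling, library sizes alone, no filter, at least 5 CPM in 3 libraries, only the groups compared, a replicate block, and leaving out each library. The code was tested on simulated data.

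Named are all genes of the families called in any comparison, a panel of well-known members, the 5 with the highest level per length, and, from each list of related genes, up to 3 called genes with the smallest p. Srsf4, Rbm12b1, Rbm47, Rbms2 and Rbms3 were named after their values were seen. The members, lists and panel were chosen with earlier results of these data known. Promoter sequences are from RefSeq (GRCm38.p6), where 72 of 84 genes matched. Of the 6 genes changed in both AET comparisons, 2 are shown, since the windows of 3 lie inside the GENCODE gene and Hnrnpul2 had no entry.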

Additional observations from a re-analysis of the deposited data

How the results depend on the processing

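Of 2520 values of named genes under alternatives, 2379 kept their side of the threshold, 123 lost a call and 18 gained one. The sign turned in 50 values, none of them called with all libraries or under the alternative (all at most 0.089 in size with all libraries), among them Tra2b, which went from -0.03 to 0.06 in AET_MET against AET with library sizes alone. Every call among the SR, hnRNP, RBM, CLK and TRA2 genes held with all libraries under other scaling, filters and tools, except Tra2a in AET_MET against AET. With 1 library left out, genes called numbered 934 to 1509 (1712 with all) in AET against SED, 141 to 655 (640) in AET_MET against SED and 23 to 461 (478) in AET_MET against AET. Genes of the families called higher and lower numbered 8 to 9 and 4 to 7 (9 and 7 with all), 0 to 2 and 1 to 4 (2 and 2), and 0 to 2 and 1 to 6 (1 and 5). The lowest counts of all genes came without the first AET library, the third AET_MET library and the third AET_MET library; without the third AET library, 954 genes were called in AET against SED and 34 in AET_MET against AET. In AET_MET against AET, library sizes alone gave 767 genes (611 higher and 156 lower) and 3 family genes higher, while moving the median of all genes to 0.09. In AET_MET against SED the same scaling gave 860 genes (684 higher and 176 lower) and a median of 0.10, and turned the sign of Hnrnpm from -0.06 to 0.04. In AET_MET against AET, no filter gave 731 genes, with 2 family genes higher and 8 lower. At least 5 CPM gave 8 lower in that comparison, and DESeq2 gave 876 genes and 8 lower. The cause was not tested.

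With the replicate number as a block, 1530, 535 and 358 genes were called in the 3 comparisons, and the family counts were the same as without it (9 and 7, 2 and 2, 1 and 5). Among the related genes named, the block put the adjusted p at 0.051 for Ddx17 (AET_MET against SED). Between the trained groups it was 0.0517 for Mbnl1, 0.0614 for Pnn, 0.0661 for Luc7l3 and 0.0752 for Snrnp70. The deviations of same-numbered libraries correlated at -0.051 to 0.184, with 2 of 9 pairs over 0.1, against -0.172 to 0.14 for other pairs, and 4 of 9 libraries were closest to their own number. The labels do not say whether the same number means a pair or a batch, and these correlations cannot decide it. In the main fit the numbers were treated as names only. The library names carry a different prefix in each group, which the labels do not explain. Whatever it stands for cannot be told apart from group. With 3 libraries a group, small changes of low genes such as Rbm47 could not be resolved.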
